A study of Mus musculus with 6 samples.

Results

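Synaptoneurosomes are pinched-off nerve endings with the attached piece of the receiving dendrite, isolated from brain tissue. Here the mRNAs of 7 genes of neurodegeneration with synaptic roles, App, Aplp1, Aplp2, Bace1, Psen2, Sncb and Prnp, were followed among the 21958 protein-coding genes counted. They were chosen by name, with earlier results of these data known. All 7 were found in the count table, and all 7 passed the filter on low counts that left 12255 genes for testing. The samples came from hippocampus and the cortex next to it of FVB mice aged 6 to 8 weeks, with no other genotype given. One group of 3 libraries (polyribosomes) held RNA of light and heavy polyribosomal fractions from synaptoneurosomes that had received a 30 s pulse of 50 µM NMDA and 10 µM glutamate, followed by 120 µM APV, an NMDA receptor antagonist, and 20 min of incubation. The other group of 3 libraries (total RNA) came from unstimulated synaptoneurosomes, which the methods describe as kept on ice with cycloheximide. The groups thus differed in stimulation, incubation and fraction together, and these cannot be told apart. Each preparation pooled tissue of several mice and was divided into aliquots. A polyribosome library and a total RNA library that carry one number are called a preparation here.

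The amyloid precursor protein App and its homologues Aplp1 and Aplp2 are membrane proteins with a large extracellular part and a short cytoplasmic tail, found on both sides of the synapse. Secretases cut them in sequence. An alpha- or beta-secretase sheds the extracellular part, and the gamma-secretase complex, whose catalytic subunit is a presenilin, cuts the stump within the membrane. Bace1 is the main neuronal beta-secretase and Psen2 is a presenilin. Beta-synuclein (Sncb) is a small presynaptic protein related to the synuclein that aggregates in Parkinson's disease. The cellular prion protein (Prnp) is a glycoprotein anchored to the outer membrane surface by a lipid.

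Counts on protein-coding genes summed to between 5294482 and 7361580 in the polyribosome libraries and between 1044955 and 3738022 in the total RNA libraries, with total RNA replicate 3 the shallowest. All 9 neuronal and synaptic marker genes had counts in every library. Glial RNA was present as well. The 11 astrocyte markers summed to 45350 to 49810 counts per 1000000 (CPM, scaled with TMM factors) in the polyribosome libraries and 34820 to 40720 in the others. Most of this was Slc1a2, with means of 31980 and 27870 CPM. The 9 neuronal and synaptic markers summed to 12000 to 16370 and to 10460 to 14070 CPM. The 9 oligodendrocyte markers summed to 11020 to 14870 and to 7957 to 11110 CPM, and the 10 microglia markers to 1014 to 1174 and 649.2 to 915.6 CPM.

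At an adjusted p under 0.01 in edgeR's quasi-likelihood test of polyribosomes against total RNA, 0 of the 7 genes passed in either direction. This is the study's threshold, which the study applied to DESeq2's test and not to edgeR's. In the edgeR test 0.71% of all genes were higher and 2.36% lower on polyribosomes. At an unadjusted p under 0.05, 5 of the 7 genes (App, Aplp1, Aplp2, Psen2 and Sncb) were higher, against 15.4% of all genes. In DESeq2, 2 of the 7 (App and Aplp1) passed an adjusted p of 0.01 and were higher, against 3.31% of all genes that were higher there and 3.83% lower. With no filter on low counts these were again App and Aplp1 (2.84% of all genes higher and 3.38% lower), as they were at a threshold of 0.05 (6.52% and 8.85%). When the replicate number was added to the edgeR fit as a block, so that libraries were compared within a preparation, App, Aplp1, Aplp2 and Sncb were higher on polyribosomes, against 11.8% of all genes (13.2% were lower). This block fit rests largely on variance shared across genes. App and Sncb had nearly the same standard error there (0.1293 and 0.1302), while their differences by preparation had SDs of 0.11 and 0.36. The block p-values therefore do not measure how well the preparations agreed for a single gene. An offset for the GC content and length of the mRNAs left App and Aplp2 past the threshold in the block fit (8.53% of all genes higher and 7.22% lower, or 8.45% and 7.59% with the length of the principal transcript), and none of the 7 in the unpaired one (0.262% and 0.853%). All 7 log2 fold changes were above 0, as were those of 50.1% of all genes. The median of the 7 was 0.47, against 0.00097 for all genes.

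**Figure D1:**
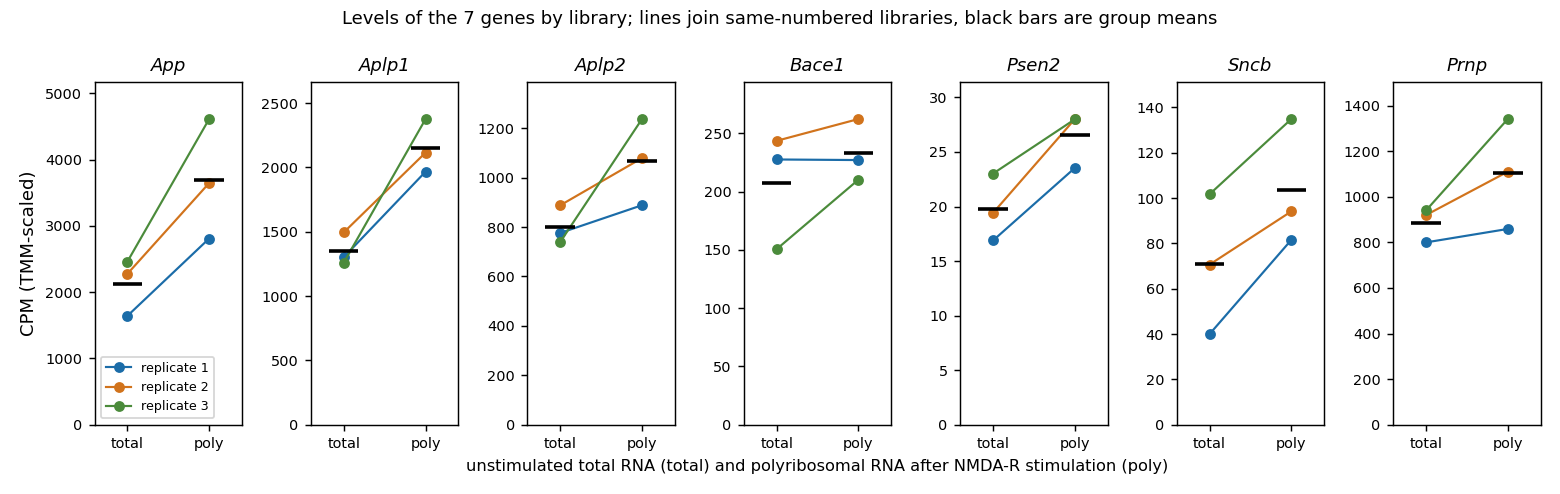
Level of each gene in counts per 1000000 (CPM, TMM-scaled, vertical axis from 0, its own scale per panel) in the unstimulated total RNA (total) and polyribosomal (poly) libraries. Points are libraries, coloured lines join libraries with the same replicate number and black bars are group means, and all lines slope upward except that of Bace1 in replicate 1, which is nearly level.

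The mRNA of App, the precursor of the amyloid beta peptide, was the most counted of the 7. It had 2809, 3646 and 4612 CPM in polyribosome replicates 1 to 3 and 1641, 2275 and 2459 CPM in total RNA replicates 1 to 3. The groups did not overlap, and replicate 1 was lowest in both. This was a 1.74-fold difference, a log2 fold change of 0.80 (standard error 0.22, 95% interval 0.33 to 1.27, adjusted p = 0.0286 in edgeR). Within the 3 preparations the log2 difference was 0.78, 0.68 and 0.91, with an SD of 0.11, the smallest of the 7. In the fit with the replicate block App rose by 0.79 (standard error 0.13, adjusted p = 3.98e-07 in edgeR). With each preparation left out in turn the blocked value was 0.72 to 0.85 and passed the threshold (adjusted p from 2.02e-14 to 0.00856 in edgeR). The smallest of these, without replicate 3, was below the adjusted p of the full fit although it used fewer libraries. These p-values rest largely on variance shared across genes and are no measure of agreement between preparations. With the GC and length offset in the block fit it was 0.90 by merged exon length (adjusted p = 3.61e-09 in edgeR). By principal transcript length it was 0.78, close to the value without an offset (adjusted p = 3.9e-07 in edgeR).

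Aplp1, a homologue expressed mainly in the nervous system, was second by counts. It had 1967, 2115 and 2376 CPM on polyribosomes and 1302, 1495 and 1260 CPM in total RNA. The groups did not overlap, and their means were 2153 ± 207 and 1352 ± 125 CPM (SD, n = 3). The log2 fold change was 0.67 (standard error 0.18, 95% interval 0.30 to 1.04, adjusted p = 0.0236 in edgeR). With the replicate block it was 0.67 (adjusted p = 1.21e-05 in edgeR), and 0.60, 0.50 and 0.91 in the 3 preparations. Without replicate 2 the blocked value was 0.76 and missed the threshold (adjusted p = 0.0144 in edgeR). With the GC and length offset in the block fit it was 0.27 and did not pass (adjusted p = 0.113 in edgeR). The principal Aplp1 transcript had 60.2% GC, against a median of 50.5% over the genes tested.

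Aplp2, the homologue with the widest expression outside the brain, had 888.2, 1079 and 1237 CPM on polyribosomes and 776.0, 887.8 and 739.4 CPM in total RNA. The groups did not overlap, but the lowest polyribosome library and the highest total RNA library were nearly level. The log2 fold change was 0.41 (standard error 0.18, 95% interval 0.03 to 0.80, adjusted p = 0.129 in edgeR). The 3 preparations were uneven, at 0.19, 0.28 and 0.74. With the block Aplp2 was higher by 0.40 (adjusted p = 0.00835 in edgeR), and with any one preparation left out it missed the threshold, at adjusted p from 0.0293 to 0.133. Without replicate 3 the log2 fold change was 0.23. With the GC and length offset in the block fit it was 0.50 (adjusted p = 8.98e-04 in edgeR).

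These 3 genes are related in sequence, and reads were counted per gene rather than per isoform. In the reference transcripts of Gencode vM21 (GRCm38), the coding parts of App (2088 bases), Aplp1 (1965 bases) and Aplp2 (2256 bases) were 69.0% identical between App and Aplp2 over 1986 aligned bases, 62.5% between App and Aplp1 and 62.3% between Aplp1 and Aplp2. The last 60 bases of each coding part, stop codon included, are shown because they code for the end of the tail that cytoplasmic adaptor proteins bind, and capitals mark the bases matching AANCCNACNTAN.
App: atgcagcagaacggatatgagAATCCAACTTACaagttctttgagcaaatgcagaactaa
Aplp1: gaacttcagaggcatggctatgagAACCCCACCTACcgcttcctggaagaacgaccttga
Aplp2: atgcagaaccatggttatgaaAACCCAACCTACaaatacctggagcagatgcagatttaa
Searched on the coding strand alone, these 12 letters were found in the last 60 bases of 16 of 21066 coding parts (0.076%). Aligned at the motif, App and Aplp2 shared 42 of 57 bases, App and Aplp1 32, and Aplp1 and Aplp2 35. The sequences are those of the reference strain, not read from the FVB libraries.

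Because a ratio of counts of 2 genes in one library needs no scaling between libraries, the balance within the family was compared as well. App took 49.6%, 53.3% and 56.1% of the counts on the 3 genes in polyribosome replicates 1 to 3 and 44.1%, 48.8% and 55.2% in total RNA. Aplp2 took 15.7%, 15.8% and 15.0% on polyribosomes and 20.9%, 19.1% and 16.6% in total RNA, and its groups did not overlap. Aplp1 took 28.9% to 34.7% and 28.3% to 35.0%, ranges that nearly coincide. The log2 ratio of Aplp2 to App was -1.77 ± 0.12 on polyribosomes and -1.39 ± 0.33 in total RNA (SD, n = 3), and it was lower on polyribosomes by 0.58, 0.40 and 0.17 in the 3 preparations. An exact two-sided permutation test gave p = 0.2, where 0.1 is the smallest p that 3 libraries against 3 allow. For Aplp1 to App the ratio was -0.75 ± 0.22 and -0.63 ± 0.32 (exact permutation p = 0.7). With 3 ratios compared and a smallest p of 0.1, no ratio could pass 0.05, and none was adjusted.

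**Figure D2:**
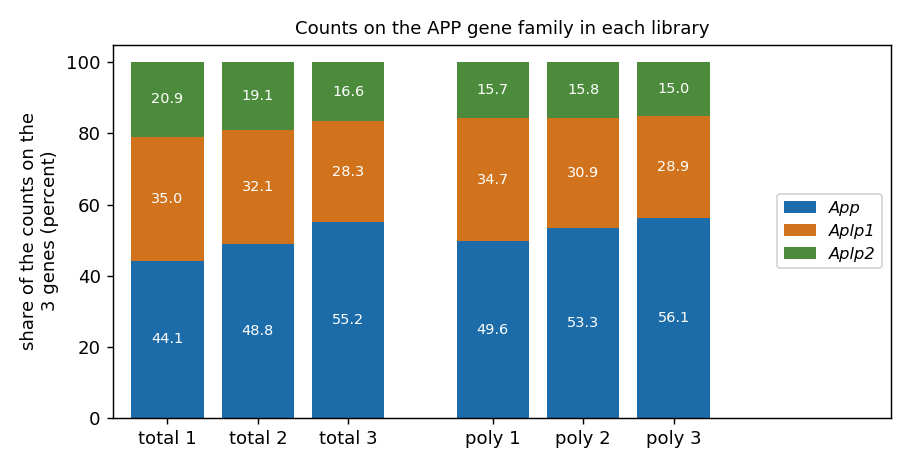
Share of the counts on App, Aplp1 and Aplp2 taken by each gene (percent, vertical axis from 0), one bar per library, total RNA on the left and polyribosomes on the right. The share of Aplp2 is 15.0% to 15.8% in the polyribosome libraries and 16.6% to 20.9% in total RNA.

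Of the secretases, Bace1 was the more abundant and showed the smallest difference of the 7. It had 227.0, 262.2 and 210.2 CPM on polyribosomes and 227.5, 243.5 and 150.6 CPM in total RNA, so the groups overlapped and replicate 3 was the lowest library of each. The log2 fold change was 0.16 with a 95% interval of -0.25 to 0.57 (adjusted p = 0.611 in edgeR), and -0.0030, 0.11 and 0.48 in the 3 preparations. It was -0.014 without total RNA replicate 3, the shallowest library. With the block it was 0.17, with an interval of -0.08 to 0.42. Rnf214, a gene on the opposite strand, shares 975 of the 6058 exonic bases of Bace1 (16.1%), and the use of strand information during counting is not given in the sources used here, so the Bace1 counts are uncertain to that extent. Rnf214 itself had 192 to 307 counts on polyribosomes and 46 to 151 in total RNA.

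Psen2 was the least abundant of the 7. Its counts were 174, 186 and 136 on polyribosomes and 68, 58 and 24 in total RNA. The 24 counts of total RNA replicate 3 have an exact 95% Poisson interval of 15.4 to 35.7, which covers counting error only. Scaled, these were 23.54, 28.02 and 28.00 CPM on polyribosomes and 16.89, 19.42 and 23.02 CPM in total RNA, groups that did not overlap but whose nearest libraries lay within that counting error. The log2 fold change was 0.47 (standard error 0.19, 95% interval 0.06 to 0.88, adjusted p = 0.109 in edgeR). With the block it was 0.46 and missed the threshold (adjusted p = 0.0236 in edgeR), although the 3 preparations, at 0.48, 0.53 and 0.28, all had more on polyribosomes. The log2 ratio of Psen2 to Bace1 was -3.13 ± 0.20 on polyribosomes and -3.35 ± 0.58 in total RNA (SD, n = 3, exact permutation p = 0.6). The difference was 0.48, 0.41 and -0.22 in the 3 preparations, so replicate 3 went the other way. Between the groups it was 0.22 with 0.5 counts added to each gene, and 0.042 with 10 counts added.

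Sncb varied most between preparations. It had 81.57, 94.14 and 134.9 CPM on polyribosomes and 39.98, 70.66 and 101.7 CPM in total RNA. Replicate 1 was lowest and replicate 3 highest in both groups, so that the groups overlapped while each preparation had more on polyribosomes, by 1.03, 0.41 and 0.41 on the log2 scale. The log2 fold change was 0.61 with a standard error of 0.27, the largest of the 7 (95% interval 0.02 to 1.19, adjusted p = 0.138 in edgeR). It ranged from 0.28 without total RNA replicate 1 to 0.91 without total RNA replicate 3. With the block Sncb rose by 0.62 (standard error 0.13, adjusted p = 5.87e-05 in edgeR). Without replicate 1 the blocked value was 0.40 and did not pass (adjusted p = 0.0865 in edgeR). With the GC and length offset it was 0.11 and did not pass either (adjusted p = 0.535 in edgeR), and the Sncb mRNA had the highest GC content of the 7, at 61.4%.

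Prnp had 858.8, 1110 and 1341 CPM on polyribosomes and 799.8, 919.6 and 939.8 CPM in total RNA. Polyribosome replicate 1 lay within the range of total RNA, and the other polyribosome libraries lay above it. The log2 fold change was 0.32 (standard error 0.19, 95% interval -0.09 to 0.73, adjusted p = 0.273 in edgeR). The 3 preparations gave 0.10, 0.27 and 0.51, and the blocked value of 0.29 missed the threshold (adjusted p = 0.0568 in edgeR). An overlapping gene of the table, Gm28045, shares 145 exonic bases with Prnp (6.64%) on the same strand and had 0 counts in all 6 libraries, and the assignment of reads there is uncertain.

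**Figure D3:**
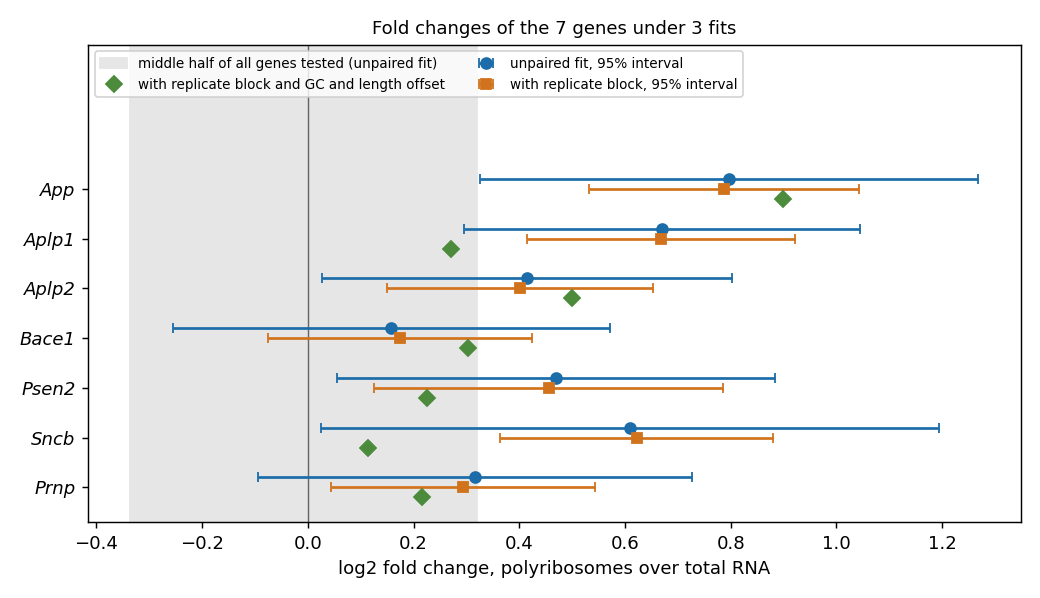
Log2 fold change of polyribosomes over total RNA for each gene (horizontal axis) in the unpaired fit, in the fit with the replicate block (both with 95% intervals) and in the block fit with an offset for GC content and length. The grey band spans the quartiles of all genes tested, -0.34 to 0.32, and with the offset Aplp1, Psen2 and Sncb are at 0.27, 0.23 and 0.11 while App is at 0.90. The block intervals rest largely on variance shared across genes and do not show the spread between preparations. The offset drawn uses merged exon length. With principal transcript length, not drawn, Aplp1, Psen2 and Sncb were at 0.29, 0.23 and 0.11 and App at 0.78.

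Across the 7 genes, 4 had groups that did not overlap in CPM, all of them higher on polyribosomes, against 17.4% of all genes (in 18.9% the groups lay apart in the other direction), and 6 were higher in all 3 preparations, against 30.2%. These are App, Aplp1, Aplp2 and Psen2 for the first count, and all but Bace1 for the second. Such counts are a description only, because the genes were chosen with earlier results of these data known. The median of the 7 was 0.48, 0.41 and 0.51 in the 3 preparations, against 0.0017, 0.0054 and 0 for all genes. The order of fold changes was App, Aplp1, Sncb, Psen2, Aplp2, Prnp and Bace1, and in the unpaired fit the intervals of all 7 overlapped. In the block fit those of App (0.53 to 1.04) and Bace1 (-0.08 to 0.42) did not, and the difference between genes was not tested. Their standard errors there were nearly equal (0.1293 and 0.126), while the SDs over the 3 preparations were 0.11 for App and 0.25 for Bace1. The blocked intervals therefore do not show how far the preparations separate these genes. The median of the 11 astrocyte markers, all 11 of which were above 0, was 0.54, and those of oligodendrocyte and microglia markers were 0.33 and 0.37. In the unpaired fit at an adjusted p of 0.01, Cldn11 of oligodendrocytes was the one marker that passed, and with the block 8 astrocyte, 4 oligodendrocyte, 4 microglia, 4 neuronal and 1 endothelial marker were higher (edgeR), against 11.8% of all genes. With the GC and length offset added, 10 astrocyte, 3 oligodendrocyte, 4 microglia, 1 neuronal and 0 endothelial markers were higher, against 8.53% of all genes. The median of the 9 neuronal and synaptic markers was 0.20 and that of the 7 endothelial ones 0.22. Several of the 7 genes are also expressed in glia, and every marker of these lists had counts in every library. The part of glial RNA in the values above was not tested. In bulk RNA, more RNA from a cell type and more of a transcript per cell cannot be told apart.

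Levels of different genes were compared as CPM per kilobase of merged exons. On polyribosomes Aplp1 was highest with 919 ± 88.3, followed by Prnp (505 ± 110), App (452 ± 111), Aplp2 (291 ± 47.6), Sncb (67.5 ± 18.2), Bace1 (38.5 ± 4.38) and Psen2 (11.6 ± 1.13, SD, n = 3 for each). The ranges of Prnp and App overlapped, and those of the other neighbours did not. In total RNA the order was the same, from 577 ± 53.5 for Aplp1 to 8.67 ± 1.35 for Psen2, with overlapping ranges for App and Aplp2 and for Sncb and Bace1. This order depends on the length used. For App, merged exons span 8.17 kb because of a single long transcript, and per kilobase of its principal transcript of 3.18 kb it had 1162 ± 284 on polyribosomes and 669 ± 135 in total RNA, with ranges that overlapped those of Aplp1. Per kilobase of coding length Prnp stood above Aplp1, with means of 1442 against 1095 on polyribosomes and 1159 against 688 in total RNA, and App had 1767 and 1018. By merged exons Aplp1, Prnp, App and Aplp2 ranked 26, 52, 56 and 107 of the genes tested on polyribosomes, whereas Psen2 lay at the 65.5th percentile.

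The start codon contexts of the 7 mRNAs are shown because the bases around the start codon affect initiation, the step that loads ribosomes. Each has 9 bases before the start codon and 9 after, from the principal transcript in Gencode vM21 (GRCm38), and capitals mark the base 3 before the start codon, the start codon and the base after it.
App: aggatcAcgATGCtgcccagc
Aplp1: ggcccgGacATGGggcccacc
Aplp2: tggagaAggATGGcggccacc
Bace1: gggctcActATGGccccagcg
Psen2: ggagtgAccATGCtcgcattc
Sncb: gccgccAggATGGacgtgttc
Prnp: tcagtcAtcATGGcgaacctt
All 7 have A or G at the first of these places, as do 86.8% of 11949 genes tested, and 5 of the 7 have G after the start codon, as do 52.7%. App, with the largest fold change, and Psen2 are the ones without that G. The start codon of App lies on the minus strand of chromosome 16 at 85173556 to 85173558, within a gene from 84954440 to 85173707. Aplp1 lies on chromosome 7 from 30434981 to 30445582 and Sncb on chromosome 13 from 54758860 to 54766595, both on the minus strand and with no overlapping gene in the table. Aplp2 lies on chromosome 9 from 31149557 to 31211815, Psen2 on chromosome 1 from 180227004 to 180263438, Bace1 on chromosome 9 from 45838580 to 45864399 and Prnp on chromosome 2 from 131909928 to 131938429. The mRNAs differ widely outside the coding part, with 4104 bases after the stop codon in Bace1, 1314 in Aplp2, 1235 in Prnp, 888 in App, 649 in Sncb, 569 in Psen2 and 311 in Aplp1.

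Other genes that process, bind or sort these proteins were taken as 5 lists of 40 genes by role, of which 37 were tested. In edgeR's unpaired fit 0 passed an adjusted p of 0.01. At an unadjusted p under 0.05, 7 were higher and 4 lower, against 15.4% and 17.1% of all genes. DESeq2 called 2 higher, Itm2b and Lrp1, and 0 lower, against 3.31% and 3.83% of all genes. With the replicate block 7 were higher and 3 lower, against 11.8% and 13.2% of all genes. Their median log2 fold change was 0.12, and 25 of the 37 were above 0. No result about the lists is read from these shares. Genes named below beyond the 2 most abundant of each list were chosen after their values were seen.

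Among 9 other secretases and subunits, the most abundant were Adam10, the main neuronal alpha-secretase (130 ± 30.0 CPM on polyribosomes against 127 ± 28.5 in total RNA), and Adam9 (114 ± 16.9 and 103 ± 14.7). Their log2 fold changes were 0.02 and 0.12, with adjusted p of 0.956 and 0.668 in edgeR. With the block and the GC and length offset Adam10 was higher by 0.39 (adjusted p = 0.00657 in edgeR), as were the alpha-secretase Adam17 (0.44) and the Bace1 homologue Bace2 (0.95). Bace2 was the least abundant of the list, at 7.54 ± 1.13 and 4.27 ± 2.18 CPM, with 1.92 CPM in total RNA replicate 3. With the block alone Bace2 was 0.66 and did not pass (adjusted p = 0.0476 in edgeR). The gamma-secretase subunits went in both directions with the block. Ncstn, the substrate receptor of the complex, rose by 0.47 (adjusted p = 0.002 in edgeR), and Aph1c fell by 0.54 (adjusted p = 0.00825). With the offset added Ncstn passed again (0.40) and Aph1c did not, so that 4 genes of the list were higher and 0 lower. In the block fit without the offset Aph1a (0.43), Psenen (0.39) and Aph1b (-0.07) did not pass, nor did they with it.

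Of the 10 cytoplasmic and membrane partners tested, Itm2b and Itm2c, membrane proteins that bind App and slow its cleavage, were the most abundant, with 1248 ± 192 and 1304 ± 335 CPM on polyribosomes and 738 ± 58.8 and 869 ± 106 in total RNA. With the block they rose by 0.75 and 0.56 (adjusted p = 8.31e-07 and 2.01e-04 in edgeR), and Apba3 rose by 0.82 (adjusted p = 0.0012). Apbb2, an adaptor that binds the tail of App, fell by 0.45 (adjusted p = 0.00852). With the GC and length offset Itm2b and Apbb2 passed again, Itm2c and Apba3 did not, and Numb, an endocytic adaptor, was lower, at -0.53.

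Among the 10 sorting receptors and retromer subunits, Sorl1 (1417 ± 175 and 1164 ± 221 CPM) and Sort1 (1002 ± 134 and 914 ± 95.1 CPM) were the most abundant, with log2 fold changes of 0.28 and 0.13 (adjusted p = 0.324 and 0.649 in edgeR). With the block Sorcs2 was higher by 0.51 (adjusted p = 6.19e-04) and the retromer subunit Vps26a lower, at -0.50 (adjusted p = 0.00974 in edgeR). With the offset added Vps26a lost its call, and Sorl1 (0.46, adjusted p = 0.00283 in edgeR), Sorcs1 (0.40), Sorcs2 (0.38) and Sorcs3 (0.43) were higher. Among the 5 genes of degradation and uptake, the endocytic receptor Lrp1 had 3773 ± 555 and 2333 ± 160 CPM. These CPM are near those of App but are not scaled by length, so they do not compare the numbers of mRNAs. Lrp1 rose by 0.68 with the block (adjusted p = 9.05e-06 in edgeR). The endothelin-converting enzyme Ece1, which also cleaves amyloid beta, had 159 ± 14.1 and 111 ± 13.5 CPM and rose by 0.52 (adjusted p = 4.82e-04). Of the synuclein and prion relatives and partners 3 of 5 were tested, the most abundant being Sprn (257 ± 23.3 and 240 ± 3.22 CPM) and Stip1 (56.8 ± 4.33 and 50.6 ± 2.84 CPM). Their log2 fold changes were 0.10 and 0.16, and with the block 0 of the 3 passed. With the block and the GC and length offset 11 of the 37 pathway genes were higher and 2 lower, against 8.53% and 7.22% of all genes, of which 5 and 1 had passed with the block alone.

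**Figure D4:**
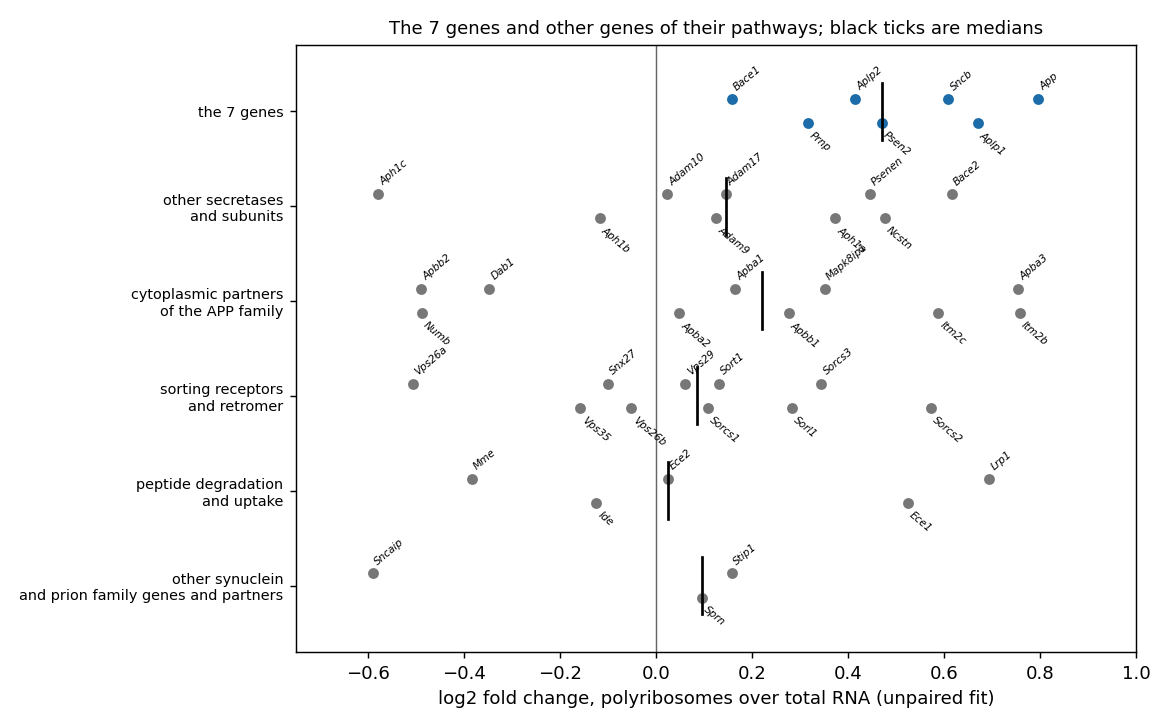
Log2 fold change of polyribosomes over total RNA in the unpaired fit (horizontal axis) for the 7 genes and for each tested gene of 5 lists of pathway genes (rows, small vertical offsets only separate the labels). Black ticks are medians, which are 0.47 for the 7 genes and between 0.02 and 0.22 for the lists.

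The genes whose log2 CPM over the 6 libraries followed each of the 7 most closely were sought among 3735 genes with a mean of at least 50 CPM. For App these were Dscaml1 and the astrocyte filament gene Gfap (Pearson's r of 0.997 for each), and for Aplp1 they were Unc5b and the endoplasmic reticulum chaperone Hspa5 (0.996 for each). Cd82 and H2afy were nearest to Aplp2 (0.994 and 0.991), Clcn4-2 and Slc20a1 to Bace1 (0.991 and 0.989), and Erp29 and Mfsd12 to Psen2 (0.996 and 0.990). Rph3a, which codes for the synaptic vesicle protein rabphilin, and Usp19 were nearest to Sncb (0.992 and 0.989), and Fstl4 and Fdft1 to Prnp (0.993 and 0.989). The 6 points share libraries, depth and the difference between the groups, so these values are a description only.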

How the data were processed

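The authors depleted ribosomal RNA, made strand-specific libraries, mapped reads with STAR 2.5.2b to GRCm38 (mm10), and assigned them to genes of Gencode vM6. They deposited raw counts per gene, which are not normalized. The 6 columns of their own DESeq2 comparison were not used. The methods describe the total RNA both as a separate aliquot and as part of the lysate.

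The unpaired values are from edgeR 4.0.16 under R 4.3.3 (TMM, filterByExpr, quasi-likelihood test, group as the only term, Benjamini-Hochberg adjustment over 12255 genes, threshold 0.01). DESeq2 1.42.0, a replicate block, other scalings and filters, and a loess offset for GC content and merged exon length (Gencode vM21, 99.5% of genes) were alternatives. The procedure was checked on simulated counts with larger log2 changes than those of the genes followed here. Its power for smaller changes was not checked. Deviations of same-numbered libraries from their group means correlated across genes at 0.37, 0.26 and 0.38, and their column names share a label. Same-numbered libraries were therefore treated as pairs in the block fits and in the differences by preparation. The unpaired fit, planned as the main one, does not use this pairing. The GC offset with the principal transcript length and the fits without a preparation were added after seeing the data.

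Named were the 7 genes, in each pathway list the genes past the threshold and the 2 most abundant, and the 2 most similar genes of each. Aph1a, Psenen and Aph1b were added after their values were seen, to complete the gamma-secretase subunits of the list. The genes and lists were chosen with earlier results of these data known. Library totals were 1044955 to 7361580 counts. Replicates differed by more than sampling noise.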

Additional observations from a re-analysis of the deposited data

How the results depend on the processing

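Of the 7 genes, 4 were higher with the replicate block, 2 with the block and GC and length offset (or, by principal transcript length, 2), 2 in DESeq2, 2 with no filter, 2 at a threshold of 0.05, 1 without replicate 3 and no block, and 2 to 3 with the block and one preparation left out. With any single library left out 0 passed, and 0 were lower under every alternative run. App was 0.79 with the block (0.72 to 0.85 with a preparation left out), 0.90 and 0.78 with the offsets, 0.81 in DESeq2, 0.82 without a filter (adjusted p = 0.00306), 0.80 at the threshold of 0.05 and 0.71 without replicate 3, each past the threshold, and 0.61 to 0.96 with a library left out. Aplp1 passed with the block (0.67, and 0.54 to 0.76 with a preparation left out, not past it without replicate 2), in DESeq2 (0.69), without a filter (0.69) and at 0.05 (0.67), and was 0.60 to 0.75 with a library left out. Aplp2 passed with the block (0.40, and 0.23 to 0.49 with a preparation left out, never past it) and with the offsets (0.50 and 0.52), and was 0.30 to 0.53 with a library left out. Sncb passed with the block (0.62, and 0.40 to 0.74 with a preparation left out, 0.70 without replicate 3 and not past it without replicate 1), and was 0.28 to 0.91. Psen2 was 0.34 to 0.55 and Prnp 0.16 to 0.47 with a library left out. Bace1 was -0.014 without total RNA replicate 3 and up to 0.29. The median of the 7 was 0.27 and 0.29 with the block and offsets, 0.26 with the offset alone, 0.36 with library totals only, which moved the median of all genes to -0.11, and 0.34 to 0.55 with a library left out. The Aplp1 to App ratio difference was 0.033 without total RNA replicate 1 and down to -0.28, with -0.12 over all libraries, so it has no stable sign. The Aplp2 to App difference was -0.55 to -0.23 and that of Psen2 to Bace1 0.030 to 0.56 with a library left out. The Psen2 to Bace1 difference was -0.22 within replicate 3 and 0.042 with 10 counts added to each gene, so its sign is not stable either.

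Over all genes, 87 were higher and 289 lower, becoming 1441 and 1622 with the block, 1040 and 880 with the block and offset, 1030 and 926 by principal transcript length, 32 and 104 with the offset alone, 476 and 566 without a filter, 799 and 1085 at 0.05, 453 and 658 without replicate 3, 321 higher in DESeq2 and 42 higher with library totals only. With a library left out these were 0 to 61 higher and 22 to 208 lower, and with the block and a preparation left out 518 to 1470 higher (627 without replicate 1) and 682 to 1602 lower (910 without replicate 1). Pathway genes were 7 higher and 3 lower with the block, 11 and 2 with the offset, 10 and 2 by principal transcript length, 2 higher in DESeq2, 2 without a filter, 4 at 0.05, 3 without replicate 3, and 1 to 8 higher and 0 to 2 lower with the block and a preparation left out. The causes were not tested. Depth limits Psen2 most.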
